A study of Mus musculus with 12 samples.

Results

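The 8 cytokine genes Il10, Ebi3, Lif, Lta, Ltb, Tnf, Tgfb1 and Il6 were followed in antigen-specific plasma cells of the bone marrow. They were chosen by symbol from the annotation of the arrays, as 8 of 19938 genes that a probe set names alone, and each of them has 1 such probe set. Cells of 2 genotypes were compared on 6 arrays each, Zbtb32-/- and Zbtb32 +/+ (wild type). Zbtb32 encodes a BTB zinc finger transcription factor. Spleen cells of donor mice already immune to NP-CGG, a hapten on a carrier protein, were moved into CD45.1 hosts, which were then given NP-CGG. All 12 samples were sorted at day 7 from the marrow as cells negative for CD11b, Ly6g, B220 and CD45.1 and positive for NP binding, CD45.2 and CD138. The labels name no deletion or irradiation of the hosts, and the sources here do not state the age of the mice or whether cells of several mice were pooled. The question addressed by the comparison was how the absence of Zbtb32 in the donor cells alters their transcripts.

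Plasma cells are known for secreting antibody, but plasma cells also release cytokines. Il10 encodes an anti-inflammatory cytokine, and Ebi3 encodes a chain shared by IL-27 and IL-35, which it forms with the products of Il27 and Il12a. Ltb, Lta and Tnf encode ligands of the TNF superfamily: lymphotoxin alpha and beta form a membrane complex that binds Ltbr and shapes lymphoid tissue, and TNF binds Tnfrsf1a and Tnfrsf1b. Il6 and Lif encode cytokines that signal through the shared receptor chain Il6st (gp130), and Tgfb1 encodes a latent growth factor that acts in class switching to IgA and in restraint of immune cells.

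Expression is given on a log2 scale for each probe set after RMA, a method that subtracts background, aligns the arrays and summarises the probes. The median per array lay between 6.28 and 6.43. The array background was read from 1210 probe sets of olfactory and vomeronasal receptor genes (genes of the nose), taken here as genes largely silent in blood cells. Their 95th percentile on each array served as the limit for a level above background. It lay between 5.89 and 6.37 in Zbtb32-/- arrays, against 5.83 and 6.61 in wild-type arrays. Over both genotypes it lay between 5.83 and 6.17 in replicates 1 to 3 and between 6.28 and 6.61 in replicates 4 to 6, so values are also given within these sets, which the labels do not call batches. This limit is not a detection call, since base composition also sets the signal of an unexpressed probe set. All 13 measured plasma cell markers lay above it on all 12 arrays. Their median difference between Zbtb32-/- and wild-type cells was 0.11, with 10 of 13 positive and 0 passing limma. Jchain, the antibody joining chain, averaged 13.60 ± 0.055 in Zbtb32-/- and 13.70 ± 0.12 in wild-type cells, and Xbp1, a transcription factor of secretory cells, averaged 13.10 ± 0.18 in Zbtb32-/- and 12.94 ± 0.23 in wild-type cells (log2, SD, n = 6 each). The probe set of Zbtb32 itself averaged 6.56 in Zbtb32-/- and 6.67 in wild-type cells. Which part of Zbtb32 was deleted is unstated in these sources, and the value therefore checks no label. Whether a transcript is low because fewer cells carry it or because each cell holds less of it cannot be told apart in bulk samples.

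Of the 8 genes, 2 lay above the background on all 12 arrays, Ltb and Tgfb1, which 40.7% of all genes did. Ebi3 did so on 10 arrays, and Il10 and Tnf on 2 arrays each. Lif, Lta and Il6 lay below it on every array, as did 30.8% of all genes. For no cytokine gene did a genotype difference pass the test. Limma passed 0 of 14993 genes (0%) at an adjusted p of 0.05, and so 0 of the 7 cytokine genes that passed the filter on low values. Without adjustment 642 genes (4.28%) had a p under 0.05, of which 217 were lower in Zbtb32-/- cells (1.45%). Lif and Lta are among these 217. The smallest p that an exact permutation test of these arrays can give is 0.00216. No gene could pass alone with it after adjustment over 14993 genes, so its 0 genes passing adds nothing to limma. At an unadjusted p under 0.05 this permutation test gave 647 genes. The genes were listed with such results already known, so nothing is read from this count. The median difference over the 7 genes was -0.23 and that over all genes tested was 0.012.

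**Figure D1:**
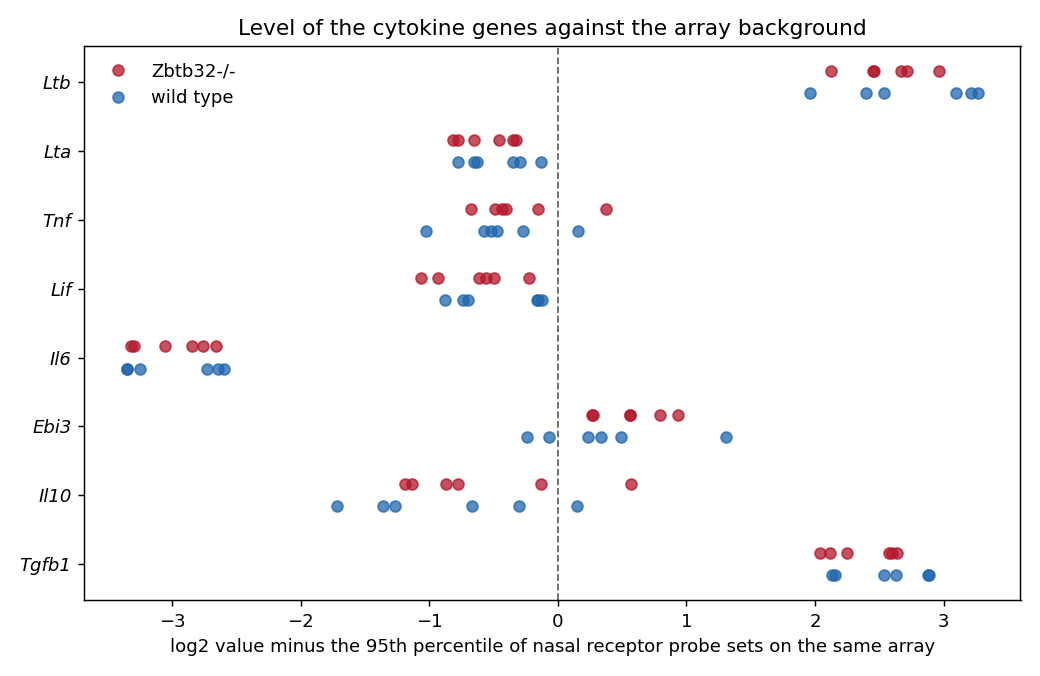
Each point is 1 array, placed by the log2 value of the gene minus the 95th percentile of the nasal receptor probe sets on that array (dashed line at 0), with the 6 Zbtb32-/- arrays above the 6 wild-type arrays for each gene. All points of Ltb and Tgfb1 lie to the right of the line, all points of Lif, Lta and Il6 lie to the left, and Ebi3, Il10 and Tnf cross it.

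Ltb, Tnf and Lta lie beside each other on mouse chromosome 17, with only the microRNA gene Mir6973a annotated between Ltb and Tnf. The 250 bases before the start of each are shown because these neighbours include Ltb, above the background on all arrays, and Lta, below it on all. They are from RefSeq on GRCm38.p6, at chr17:35194257-35194506 on the + strand for Ltb, chr17:35202008-35202257 on the - strand for Tnf and chr17:35205352-35205601 on the - strand for Lta. Capitals mark matches to the NF-kappaB consensus on either strand or to TATAAA on the strand of the gene.
Ltb: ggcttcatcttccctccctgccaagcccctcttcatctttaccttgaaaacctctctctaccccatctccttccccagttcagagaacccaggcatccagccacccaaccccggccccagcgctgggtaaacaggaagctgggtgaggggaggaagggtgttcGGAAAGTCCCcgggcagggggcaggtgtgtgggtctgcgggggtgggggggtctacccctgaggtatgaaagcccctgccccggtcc
Tnf: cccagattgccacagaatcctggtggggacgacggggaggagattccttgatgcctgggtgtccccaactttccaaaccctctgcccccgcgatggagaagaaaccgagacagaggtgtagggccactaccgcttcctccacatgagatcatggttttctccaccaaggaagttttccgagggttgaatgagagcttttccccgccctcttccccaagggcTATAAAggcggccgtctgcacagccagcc
Lta: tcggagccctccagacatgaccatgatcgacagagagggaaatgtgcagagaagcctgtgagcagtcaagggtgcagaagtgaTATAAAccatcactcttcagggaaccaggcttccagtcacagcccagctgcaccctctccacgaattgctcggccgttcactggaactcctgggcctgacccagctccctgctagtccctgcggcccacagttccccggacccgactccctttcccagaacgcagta

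The window of Ltb held 1 NF-kappaB match, which begins 87 bases before the start, and no TATAAA. Tnf held TATAAA, beginning 29 bases before the start, and Lta held it 167 bases before the start. The consensus was found in 3.90% and TATAAA in 7.59% of 32851 mouse promoter windows of the same length, and the 2 motifs did not overlap here. These matches describe letters only and show no binding.

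Ltb encodes lymphotoxin beta, the membrane anchor of the lymphotoxin complex. In Zbtb32-/- cells its lowest, median and highest values were 8.46, 8.63 and 9.32, against 8.41, 9.11 and 9.70 in wild-type cells (log2). The groups overlapped, and 5 of 6 Zbtb32-/- arrays lay below the wild-type mean. The highest Zbtb32-/- array was replicate 6, and the highest wild-type arrays were replicates 6 and 2. The means were 8.71 ± 0.32 and 9.03 ± 0.51 in Zbtb32-/- and wild-type cells (SD, n = 6 each), a difference of -0.32 (95% interval -0.81 to 0.17) or 0.801-fold. It did not pass limma (adjusted p = 0.933), and a two-sided exact permutation test gave p = 0.208. Replicates 1 to 3 alone gave -0.39 and replicates 4 to 6 alone gave -0.25. Measured from the 95th percentile of the nasal receptor probe sets, the difference was -0.18. It was -0.065 without wild-type replicates 2 and 6 together and -0.44 without Zbtb32-/- replicate 6. These arrays were the highest of their genotypes, so the direction of each shift was fixed by the choice of arrays.

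B cells also express Ltb, so their markers are set beside it. Of 12 listed B cell markers 10 were measured, and 5 (50%) lay above the background on all 12 arrays, against 40.7% of all genes. Pax5 and Ms4a1 were among the 5, although the sort excluded B220. The mean over the 10 markers ran over 7.12 to 7.79 in Zbtb32-/- and 6.88 to 8.24 in wild-type arrays (log2). Pax5, the B cell identity factor, averaged 9.08 in Zbtb32-/- and 9.68 in wild-type cells, and Bach2, which restrains plasma cell formation, averaged 7.80 in Zbtb32-/- and 8.50 in wild-type cells, neither passing limma after adjustment. With the marker mean as a covariate the Ltb difference was -0.26. Wild-type replicate 2 combined the lowest B cell marker mean, 6.88, with the next highest Ltb value of all arrays, 9.38. Wild-type replicate 5 combined the highest marker mean, 8.24, with an Ltb value of 8.48. In the other direction, wild-type replicate 6 had the highest Ltb value, 9.70, with a marker mean of 8.16. Zbtb32-/- replicate 6 had the highest Ltb value and the highest marker mean of its genotype, 9.32 and 7.79. The part of B cell RNA in the Ltb values was not tested beyond the covariate.

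Tnf encodes tumour necrosis factor, made in quantity by activated myeloid cells. Its lowest, median and highest values were 5.54, 5.72 and 6.73 in Zbtb32-/- cells, against 5.58, 5.84 and 6.06 in wild-type cells. A single array stood apart: Zbtb32-/- replicate 6 at 6.73, with the next Zbtb32-/- array at 5.79. This array and wild-type replicate 3 (5.99) were the 2 that lay above the background. Wild-type replicate 4 was higher than replicate 3, at 6.06, but its limit was 6.57, against 5.83 for replicate 3. The difference was 0.014 (95% interval -0.36 to 0.39, limma adjusted p = 0.993), and 5 of 6 Zbtb32-/- arrays lay below the wild-type mean. Without Zbtb32-/- replicate 6 the difference was -0.16.

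Zbtb32-/- replicate 6 also had the highest neutrophil marker level of the 12 arrays. Its mean over 16 of 16 listed neutrophil markers was 12.004, and the Zbtb32-/- arrays ran over 8.77 to 12.004, against 7.97 to 10.78 in wild-type arrays (log2). The granule gene S100a9 averaged 12.59 in Zbtb32-/- and 12.52 in wild-type cells, although the sort excluded Ly6g and CD11b. Over 10 of 12 listed monocyte and macrophage markers the ranges were 7.21 to 8.70 in Zbtb32-/- arrays and 6.93 to 8.72 in wild-type arrays. Zbtb32-/- replicate 6 had the highest monocyte mean of its genotype, 8.70, beside its Tnf value of 6.73, and wild-type replicate 5 had a mean of 8.72 beside a Tnf value of 5.94. This Zbtb32-/- array stood apart in other markers too. Its plasma cell marker mean, 10.71, was the lowest of its genotype, with the other 5 arrays at 11.06 to 11.35. Its stromal marker mean, 7.30, was the highest of the 12 arrays, and its B cell, basophil and T and NK cell means were the highest among Zbtb32-/- arrays. With the mean of the neutrophil and monocyte markers as a covariate the Tnf difference was -0.031. The source of the Tnf signal in replicate 6 was not tested.

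**Figure D2:**
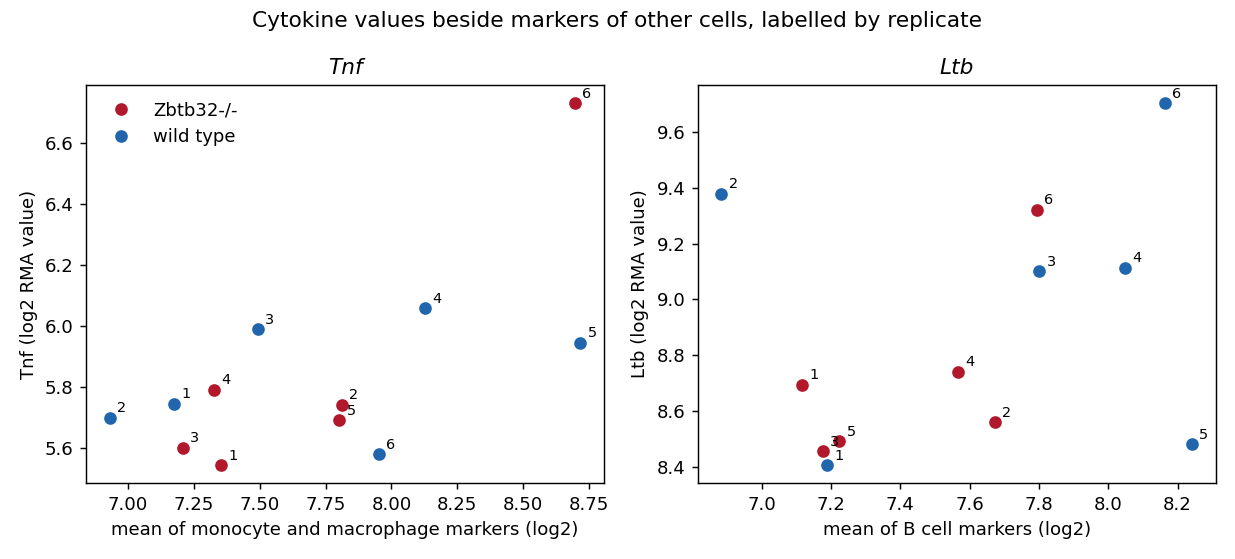
The left plot sets the Tnf value of each array (vertical axis, log2) against the mean of its 10 measured monocyte and macrophage markers (log2), and the right plot sets Ltb against the mean of 10 B cell markers, with points numbered by replicate. Zbtb32-/- replicate 6 stands alone at the top of the left-hand plot with Tnf at 6.73, and in the right-hand plot wild-type replicates 2 and 5 fall away from the other arrays.

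Lta encodes lymphotoxin alpha, the secreted partner of Ltb. Its lowest, median and highest values were 5.54, 5.57 and 5.63 in Zbtb32-/- cells, against 5.66, 5.83 and 5.98 in wild-type cells. The groups did not overlap: all 6 Zbtb32-/- arrays lay below all 6 wild-type arrays. This held for 11 of the 14993 genes tested (0.0734%), and 12 genes (0.08%) were separated the other way. The difference was -0.23 (95% interval -0.37 to -0.090) or 0.852-fold, with an adjusted p of 0.933 from limma. The two-sided exact permutation p was 0.00216, the smallest that the 924 assignments of the arrays can give, and is not adjusted for the number of genes. Over replicates 1 to 3 the difference was -0.17, and over replicates 4 to 6 it was -0.29.

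The separation of Lta lay within values that were below the background on all 12 arrays. The median of the nasal receptor probe sets was 4.46 ± 0.19 in Zbtb32-/- and 4.55 ± 0.24 in wild-type arrays (log2, SD, n = 6 each). Over all arrays its ranges overlapped, at 4.27 to 4.70 and 4.22 to 4.77. Within replicates 4 to 6 it ran over 4.54 to 4.70 in Zbtb32-/- and 4.72 to 4.77 in wild-type arrays, without overlap, and the 95th percentile ran over 6.28 to 6.37 in Zbtb32-/- and 6.52 to 6.61 in wild-type arrays. Within replicates 1 to 3 the medians overlapped, at 4.27 to 4.31 in Zbtb32-/- and 4.22 to 4.49 in wild-type arrays. Of the 193 nasal receptor genes that passed the filter, 160 had a negative difference. Over all 1194 measured nasal receptor genes the median difference was -0.075, and 141 of them had a difference as negative as that of Lta or more so. Groups without overlap were seen for 1 of these 1194 genes, lower in all Zbtb32-/- arrays, and for 0 in the higher direction. Among the 14993 genes tested the counts were 11 lower (0.0734%) and 12 higher (0.08%). Measured from the median of the nasal receptor probe sets on each array, Lta ran over 0.86 to 1.31 in Zbtb32-/- and 1.03 to 1.48 in wild-type arrays. The groups then overlapped, and the difference was -0.14. Measured from the 95th percentile, it was -0.092. Whether the background level bears on the Lta difference was not tested.

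**Figure D3:**
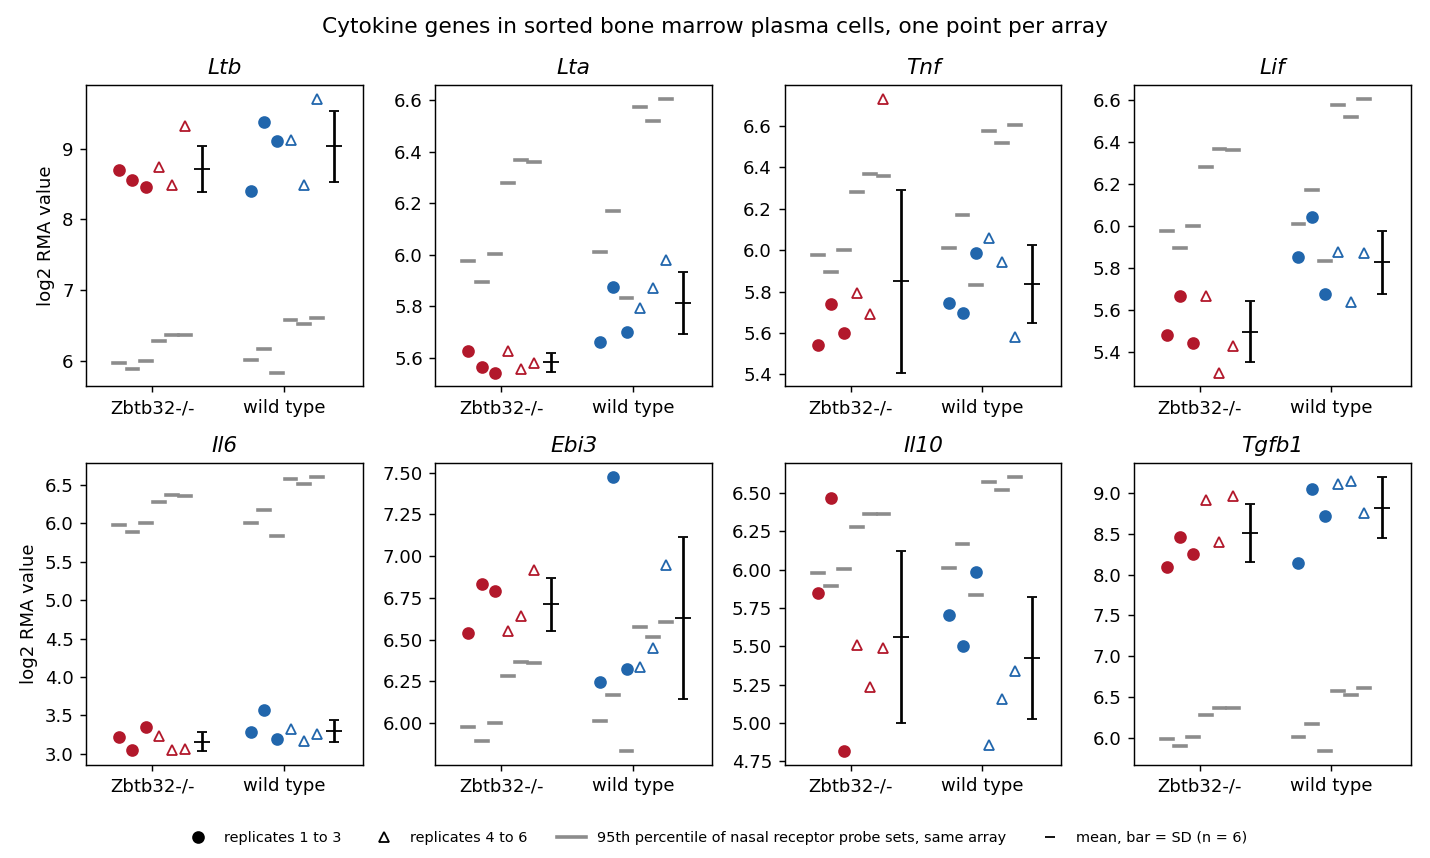
Log2 RMA values of the 8 cytokine genes, 1 point per array in order of replicate number, with Zbtb32-/- left of wild type in each panel, circles for replicates 1 to 3, triangles for replicates 4 to 6, and the mean with its SD beside them. Grey dashes mark the 95th percentile of the nasal receptor probe sets on the same array. The Zbtb32-/- points of Lta, at most 5.63, lie below its wild-type points, at least 5.66, and each lies below the grey dash of its own array.

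Lif encodes leukaemia inhibitory factor, which binds the receptor chain Lifr together with Il6st. In Zbtb32-/- cells its lowest, median and highest values were 5.30, 5.46 and 5.67, against 5.64, 5.86 and 6.04 in wild-type cells. The groups overlapped only at their edges, and 6 of 6 Zbtb32-/- arrays lay below the wild-type mean, which was true of 6.61% of the genes tested. The means were 5.50 ± 0.14 in Zbtb32-/- cells and 5.83 ± 0.15 in wild-type cells (SD, n = 6 each), a difference of -0.33 (95% interval -0.52 to -0.14) or 0.796-fold. Limma gave an adjusted p of 0.933, and the two-sided exact permutation test gave 0.00866, not adjusted for the number of genes. The difference was -0.33 within replicates 1 to 3 and likewise within replicates 4 to 6. Like Lta, Lif lay below the background on all 12 arrays, and its difference was -0.24 when measured from the nasal receptor median of each array and -0.19 from the 95th percentile. Of the nasal receptor genes, 61 had a difference as negative as that of Lif or more so.

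Il6 encodes interleukin 6, a survival signal for plasma cells that other marrow cells supply. It lay close to the floor of the arrays. The lowest, median and highest values were 3.05, 3.14 and 3.35 in Zbtb32-/- cells, against 3.17, 3.27 and 3.58 in wild-type cells. On every array between 0.404% and 1.92% of the single-gene probe sets lay lower. With a mean of 3.23, Il6 did not pass the filter and has no adjusted p over the genes tested. Its difference was -0.14 (95% interval -0.32 to 0.037) in the fit of all genes without a filter, and the two-sided exact permutation p was 0.0931. Measured from the 95th percentile of the nasal receptor probe sets the difference was -0.0022. A low RMA value of this kind does not show absence of the transcript.

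Ebi3 lay close to the background limit and just above it in most arrays. The window before its start, at chr17:55952373-55952622 on the + strand of GRCm38.p6 (RefSeq), held an NF-kappaB match in capitals that begins 44 bases before the start. Of the 7 cytokine genes with a window, 3 held a match, Ltb, Ebi3 and Il6, the last also 44 bases before the start. Tgfb1, Tnf, Lta and Lif held none. Whether a match bears on the level of a gene was not tested.
Ebi3: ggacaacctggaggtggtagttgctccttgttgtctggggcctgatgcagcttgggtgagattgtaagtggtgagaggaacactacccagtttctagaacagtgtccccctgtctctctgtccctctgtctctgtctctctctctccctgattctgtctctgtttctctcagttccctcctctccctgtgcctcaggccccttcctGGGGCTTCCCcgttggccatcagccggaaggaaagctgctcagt

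The lowest, median and highest Ebi3 values were 6.54, 6.72 and 6.92 in Zbtb32-/- cells, against 6.25, 6.39 and 7.47 in wild-type cells. All 6 Zbtb32-/- arrays lay above the background, and so did 4 of 6 wild-type arrays, those below being replicates 4 and 5. Their values, 6.34 and 6.45, stood against limits of 6.57 and 6.52. Wild-type replicates 1 and 3 had lower values, 6.25 and 6.32, but lower limits too, 6.01 and 5.83. The count thus follows the limit of each array as well as Ebi3. Wild-type arrays also spread more widely, with an SD of 0.16 in Zbtb32-/- and 0.48 in wild-type arrays, and wild-type replicate 2 was the highest at 7.47. The difference was 0.083 (95% interval -0.32 to 0.49, limma adjusted p = 0.967), and 4 of 6 Zbtb32-/- arrays were higher than the wild-type mean. Leaving out wild-type replicate 2 gave 0.25, and leaving out wild-type replicates 2 and 6 gave 0.37, and neither passed limma. Replicates 2 and 6 held the highest wild-type values, 7.47 and 6.95, so leaving them out could only raise the difference.

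The partner chains of Ebi3 were also measured. Il27, the chain that forms IL-27, averaged 6.93 in Zbtb32-/- and 7.07 in wild-type cells and lay above the background on 12 arrays. Il12a, the chain that forms IL-35 with Ebi3 and IL-12 with another partner, averaged 6.52 in Zbtb32-/- and 6.76 in wild-type cells and lay above the background on 10 arrays. Their differences were -0.14 (95% interval -0.36 to 0.066) and -0.24 (95% interval -0.61 to 0.13). The receptor chain Il27ra differed by -0.053.

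Il10 varied more between arrays than between genotypes. Its lowest, median and highest values were 4.82, 5.50 and 6.47 in Zbtb32-/- cells, against 4.85, 5.42 and 5.98 in wild-type cells. The groups overlapped over almost their whole range, with an SD of 0.56 in Zbtb32-/- and 0.40 in wild-type cells. Zbtb32-/- replicate 2 (6.47) and wild-type replicate 3 (5.98) were the 2 arrays above the background. The difference was 0.14 (95% interval -0.39 to 0.66, limma adjusted p = 0.958), and it was -0.044 without Zbtb32-/- replicate 2. Replicates 1 to 3 gave -0.020 and replicates 4 to 6 gave 0.29. The mean of replicates 4 to 6 minus that of replicates 1 to 3 was -0.30 in Zbtb32-/- cells and -0.61 in wild-type cells. The mean of Il10 equalled the filter limit to 2 decimals (5.49), so a slightly stricter filter removes it.

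Tgfb1 was well above the background throughout. The lowest, median and highest values were 8.09, 8.44 and 8.96 in Zbtb32-/- cells, against 8.15, 8.90 and 9.15 in wild-type cells. Its values lay 2.04 to 2.89 log2 units above the background limit and between percentiles 77.0 and 90.8 of the single-gene probe sets. The means were 8.51 ± 0.35 in Zbtb32-/- and 8.82 ± 0.38 in wild-type cells (SD, n = 6 each), a difference of -0.31 (95% interval -0.74 to 0.12) or 0.808-fold. This did not pass limma (adjusted p = 0.933), the two-sided exact permutation p was 0.180, and 4 of 6 Zbtb32-/- arrays lay below the wild-type mean. Replicates 4 to 6 averaged above replicates 1 to 3 by 0.49 in Zbtb32-/- cells and 0.37 in wild-type cells. Within replicates 1 to 3 the genotype difference was -0.37, and within replicates 4 to 6 it was -0.25. With the B cell marker mean as a covariate it was -0.18, and measured from the 95th percentile of the nasal receptor probe sets it was -0.17.

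**Figure D4:**
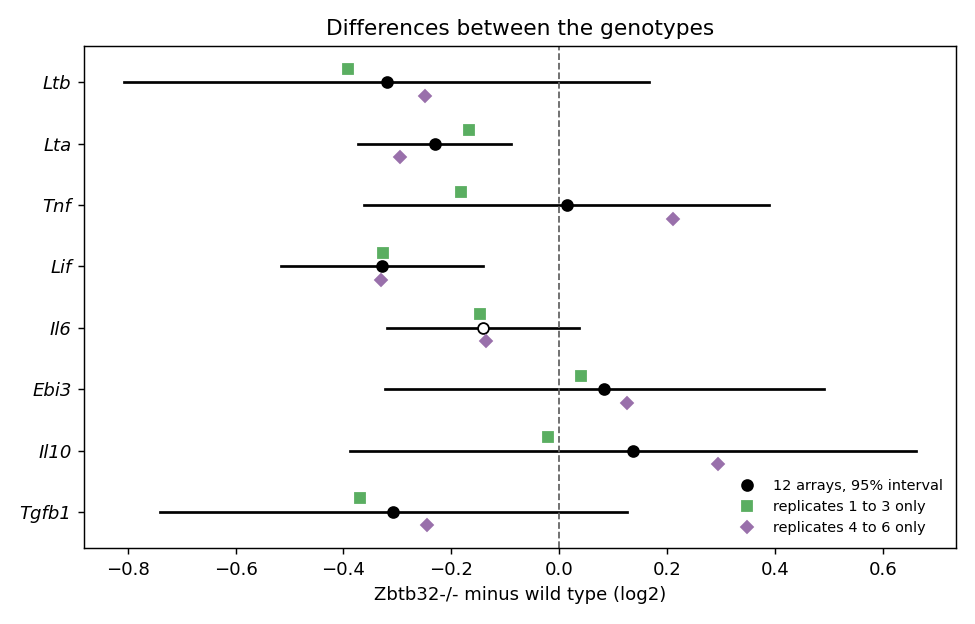
Differences between Zbtb32-/- and wild-type cells (log2) for the 8 cytokine genes. Black circles with lines give the difference over 12 arrays and its 95% interval (open for Il6, from the fit without a filter), squares the difference over replicates 1 to 3 and diamonds that over replicates 4 to 6. The intervals of Lif and Lta lie left of 0, those of the other 6 genes span it, and Tnf and Il10 change sign between the replicate sets.

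Receptors for these cytokines were measured on the same arrays. Of 14 listed receptor genes, 8 (57.1%) lay above the background on all 12 arrays, against 40.7% of all genes. Il10rb, Il6st, Il6ra and Tnfrsf1a were among the 8. The filter left 12, of which 0 passed limma in either direction, and their median difference was 0.014, beside 0.012 over all genes tested. Those with the smallest p were Tgfbr1, the signalling receptor of TGF-beta, at -0.31 (95% interval -0.65 to 0.023), and Il6ra, the IL-6-binding chain, at 0.26 (95% interval -0.031 to 0.54). Lifr, the binding chain for LIF, lay above the background on 1 array, and Ltbr, the lymphotoxin receptor, on 10.

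Of 16 genes for partner chains, processing and activation of these cytokines, 15 passed the filter and 0 passed limma in either direction. Their median difference was -0.042. Adam17, the protease that sheds TNF, averaged 8.52 in Zbtb32-/- and 8.38 in wild-type cells. Furin, which cleaves the TGF-beta precursor, averaged 7.96 in Zbtb32-/- and 7.79 in wild-type cells. The smallest p belonged to Tnfsf14 (LIGHT, which shares the receptor Ltbr) at -0.34 (95% interval -0.69 to 0.0077), followed by Il27.

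**Figure D5:**
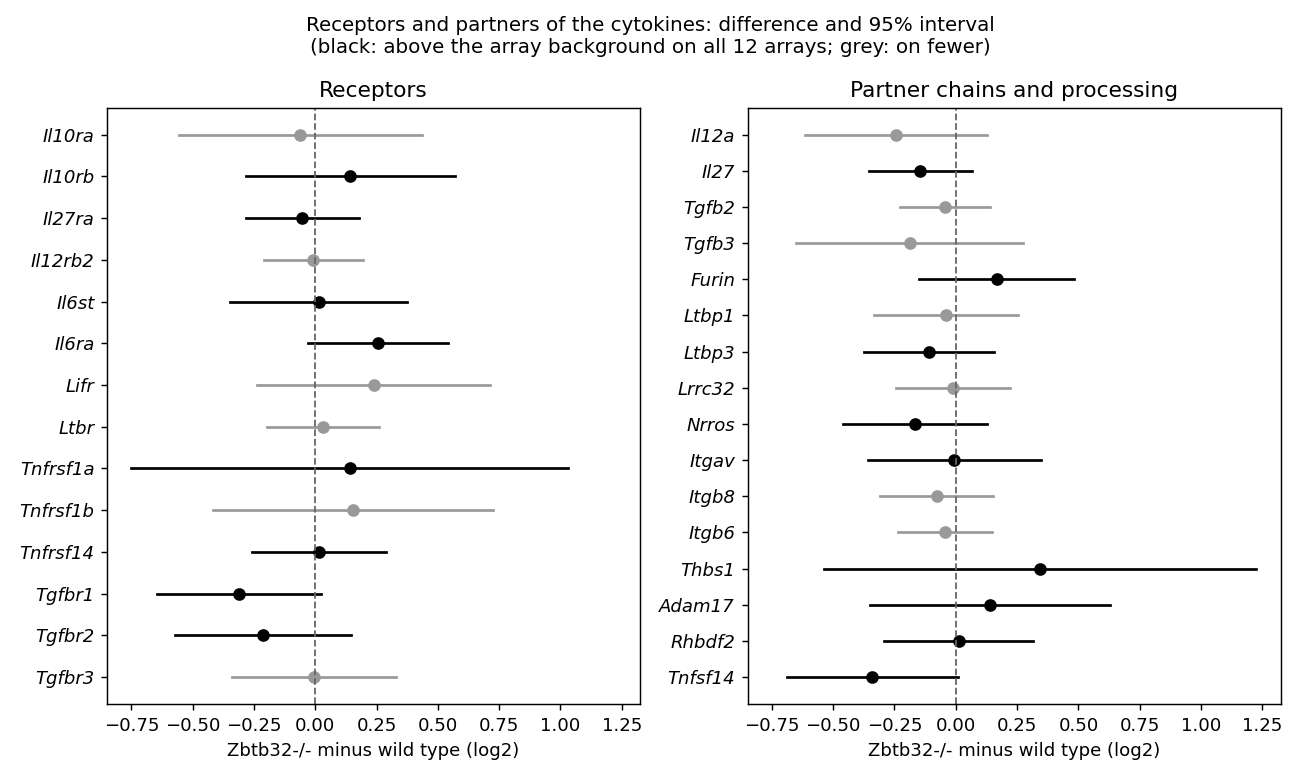
Differences between Zbtb32-/- and wild-type cells (log2, points) with 95% intervals (lines) for 14 receptor genes and 16 genes of partner chains and processing. Genes drawn in black lay above the array background on all 12 arrays, and every interval includes 0, with Tnfsf14 (-0.69 to 0.0077) and Tgfbr1 (-0.65 to 0.023) reaching it only at their upper ends.

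For the cytokine genes above the background on all arrays, the genes whose values followed theirs most closely were listed by Pearson correlation over the 12 arrays, as a description. For Ltb these were Pax9 (r = 0.884), Itga11 (0.868) and Prdm6 (0.868), and for Tgfb1 they were Il9 (0.874), Hpd (0.872) and Btnl1 (0.864). All 6 are probe sets of low mean level, 5.63 to 6.06, measured on the same arrays as Ltb and Tgfb1. Nasal receptor genes, predicted or clone-named genes and immunoglobulin or T cell receptor segments were left out of this listing. Among the remaining genes tested, 0 reached 0.9 with either.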

How the data were processed

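Each sample was 1 Affymetrix mouse gene array, and the authors deposited log2 values. The submitters' processing notes name RMA and Affymetrix Expression Console. Tool versions, and whether all arrays were normalized together, are unstated in these sources. RMA compresses low values and hides differences in total RNA. Precision is limited by the number of arrays, and the 95% interval of a difference extended by a median of 0.311 log2 units to each side. The series text calls the 6 samples of each genotype biological replicates.

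Of 35556 probe sets, 21789 name 1 gene, 1621 several and 12146 are unnamed here. Each gene was represented by the brightest of the probe sets naming it alone, and the filter removed genes averaging no more than the 25th percentile of such probe sets (5.49). Differences are Zbtb32-/- minus wild type, tested with limma 3.58.1 in R 4.3.3 (eBayes with a trend, genotype only, Benjamini-Hochberg over all genes). In a test on simulated data with 14993 genes for this comparison, 37.3%, 85.1% and 98.5% of genes changed by 0.5, 1 and 2 log2 units were recovered. Of the 159 genes called there, 12 were unchanged. The simulated noise was independent between genes, without variation shared across an array, so these shares need not hold for the real arrays. The 8 cytokine genes, the other gene lists (229 entries, 215 matched), the marker lists and the split of replicates 1 to 3 against 4 to 6 were chosen with earlier results of these data known; the labels name no batch. From the other lists the 2 genes with the smallest p were named, with further members chosen after their values were seen. Promoter sequences are RefSeq's for GRCm38.p6, matched by gene ID for 7 of the 8 genes. Alternatives covered normalization, filters, variance models, array weights, a block, marker covariates and left-out arrays.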

Additional observations from a re-analysis of the deposited data

Results flagged for a closer look

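Among the 16 groups of 6 values formed by the 8 cytokine genes and the 2 genotypes, 3 held a value far from the other 5, where chance gives about 1 in 20. The Tnf value of Zbtb32-/- replicate 6 was 6.73, with the next highest at 5.79, a gap of 0.791 of the whole range. The Ltb value of the same array was 9.32, with the next highest at 8.74, a gap of 0.671 of the range. The Il6 value of wild-type replicate 2 was 3.58, with the next highest at 3.32, a gap only just past the limit for 6 values. Zbtb32-/- replicate 6 also had the lowest plasma cell marker mean of its genotype, 10.71, and the highest neutrophil and stromal marker means of the 12 arrays, 12.004 and 7.30. Without it the differences were -0.16 for Tnf and -0.44 for Ltb.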

How the results depend on the processing

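No cytokine gene passed limma in any of the settings run. Over all genes the count stayed at 0 except over replicates 4 to 6 alone, where 1 gene, the small RNA gene Rny1, was lower in Zbtb32-/- cells (limma adjusted p = 0.0253); the smallest adjusted p of any gene was 0.314 or more in the other settings. Rny1 is named after its value was seen. The direction of Lif, Lta, Ltb, Tgfb1 and Ebi3 held in every setting. In part this was fixed, since the filters, variance models, probe set averaging, replicate set term and permutation test cannot alter these differences. Leaving out single arrays gave -0.37 to -0.29 for Lif, -0.26 to -0.20 for Lta, -0.45 to -0.19 for Ltb, -0.44 to -0.22 for Tgfb1, 0.0070 to 0.25 for Ebi3, -0.044 to 0.29 for Il10 and -0.16 to 0.075 for Tnf. Il10 turned to -0.020 over replicates 1 to 3. Tnf turned to -0.12 with array weights, -0.18 over replicates 1 to 3, -0.031 with the myeloid marker covariate and -0.085 without wild-type replicates 2 and 6, and was below 0 on removal of Zbtb32-/- replicate 6 or of any single one of wild-type replicates 1, 2 and 6; the cause was not tested. Wild-type replicates 2 and 6 held the lowest Tnf values of their genotype, so their removal could only lower the difference. With the 25th percentile of each array as background, 5 of the 8 cytokine genes lay above it on all arrays, where the nasal receptor limit gave 2. With the replicate number as a block the differences were identical by construction and 0 genes passed. The numbers were not treated as pairs, since the labels do not say that they mark shared animals or days. Same-numbered arrays had correlations of 0.468, 0.0187, 0.220, 0.0340, 0.135 and 0.156 for replicates 1 to 6. The best match was the own number for replicates 1 and 5 only. Centring each array on its nasal receptor median or 95th percentile, added after the data were seen, shifted the median difference of all genes tested to 0.10 and 0.15, against 0.012 as deposited. The strictest filter left only Ebi3, Ltb and Tgfb1 in the fit. Other probe sets of the cytokine genes could not be tried, since each has 1.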

Other observations

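Of 51 other cytokine genes, 47 were measured and 8 (17.0%) lay above the background on all 12 arrays, against 40.7% of all genes. The 8 were Il1b, Il1rn, Il16, Il31, Flt3l, Tnfsf11, Tnfsf13b and Mif, named after their values were seen. Mif, macrophage migration inhibitory factor, averaged 11.16 in Zbtb32-/- and 11.06 in wild-type cells (log2). Il1b, made by myeloid cells, averaged 9.01 in Zbtb32-/- and 9.10 in wild-type cells, with a difference of -0.096 (95% interval -1.54 to 1.35). Of the 28 that passed the filter 0 passed limma, and their median difference was -0.045. The smallest p belonged to Il17a, at 6.26 ± 0.057 in Zbtb32-/- and 6.48 ± 0.13 in wild-type cells (SD, n = 6 each), and to Clcf1, a cytokine that signals through Il6st, at 6.35 ± 0.12 in Zbtb32-/- and 6.72 ± 0.42 in wild-type cells. Their differences were -0.22 and -0.37, and they lay above the background on 6 and 9 arrays.

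Among 23 measured response genes of these cytokine pathways, 15 (65.2%) lay above the background on all arrays, against 40.7% of all genes. Of the 23, 0 passed limma, with a median difference of -0.023. Icam1, an adhesion molecule induced by TNF, differed by -0.23 (95% interval -0.63 to 0.18), and Socs2, an inhibitor of cytokine receptors, by 0.31 (95% interval -0.26 to 0.88). Of 11 genes for known regulators and companions of Il10, 10 passed the filter and 0 passed limma. Maf, a transcription factor that drives Il10 in T cells, averaged 6.75 ± 0.16 in Zbtb32-/- and 6.96 ± 0.20 in wild-type cells (SD, n = 6 each), a difference of -0.21 (95% interval -0.46 to 0.031). Atf4, a stress-response transcription factor, differed by 0.20.

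Markers of other cells were also read, and 0 of them passed limma. Of 18 listed T and NK cell markers 16 were measured, and 2 (12.5%) lay above the background on all 12 arrays, against 40.7% of all genes. The 12 that passed the filter had a median difference of -0.20. Il7r, the IL-7 receptor chain, averaged 7.61 ± 0.56 in Zbtb32-/- and 8.65 ± 1.07 in wild-type cells (SD, n = 6 each). Of 13 erythroid markers 10 were measured, with a median difference of 0.25, and Car1, a carbonic anhydrase of red cell precursors, averaged 9.67 ± 0.47 in Zbtb32-/- and 8.69 ± 1.57 in wild-type cells (SD, n = 6 each). Of 10 basophil and mast cell markers 5 passed the filter, with a median difference of -0.11. The basophil protease Mcpt8 averaged 5.51 ± 0.22 in Zbtb32-/- and 6.26 ± 1.68 in wild-type cells (SD, n = 6 each). It lay above the background on 1 array only, a wild-type array at 9.66. Of 11 stromal and endothelial markers 10 passed the filter, with a median difference of -0.065, and Pecam1 averaged 8.26 in Zbtb32-/- and 8.58 in wild-type cells.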
